A study of Mus musculus with 24 samples.

Results

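The 38 genes described here encode the pyruvate dehydrogenase complex with its kinases and phosphatases, the enzymes of the citrate cycle and of the reactions that fill and drain it, and the enzyme that makes itaconate. They were taken by name, with earlier results of these data known, and were matched to the count table through its Ensembl identifiers. All 38 were found among the 55357 genes of the table, and all 38 were among the 14985 genes that passed the filter on low counts and were tested. RNA came from bone marrow-derived macrophages of wild-type (WT) C57BL/6J mice aged 8 to 12 weeks. These are marrow cells grown into macrophages in medium with supernatant of L929 cells as the source of M-CSF, the macrophage growth factor, so every group carried that factor. The cells were left untreated, or were given 100 nM dexamethasone, a synthetic glucocorticoid, or 100 ng LPS, the bacterial lipopolysaccharide that activates Toll-like receptor 4, in a volume not given in the sources used here, or both agents together. Each treatment was sampled at 4 h and at 24 h, giving 8 groups of 3 libraries. Whether libraries of 1 group came from separate mice or cultures is not given in the sources used here, so the p-values measure the spread between these libraries, which may be technical.

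Pyruvate dehydrogenase turns pyruvate into acetyl-CoA inside the mitochondrion. Its kinases switch it off by phosphorylation and its phosphatases switch it back on. The citrate cycle oxidises acetyl-CoA through citrate, isocitrate, 2-oxoglutarate, succinyl-CoA, succinate, fumarate and malate back to oxaloacetate. In macrophages activated by LPS, cis-aconitate is drawn off by the Acod1 enzyme to give itaconate, which inhibits succinate dehydrogenase and has antimicrobial and anti-inflammatory actions. Activated macrophages are also known for accumulating citrate and succinate.

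The libraries held 18326206 to 27908164 counted reads each. Values are CPM (read counts relative to the library total) scaled by the TMM factors of edgeR, which ranged from 0.679 to 1.184, and differences are log2 fold changes ± standard error (SE). A gene is called at an adjusted p under 0.05 from the edgeR quasi-likelihood test over all tested genes with Benjamini-Hochberg adjustment. Over the members, the SD between the 3 libraries of a group was 4.3% of the mean in the median. Fkbp5, a glucocorticoid receptor target, rose from 52.4 ± 0.527 CPM untreated to 1481 ± 4.54 CPM with dexamethasone at 4 h (n = 3 each, as throughout), and Il1b, which encodes an inflammatory cytokine, rose from 1.1 ± 0.549 to 6554 ± 486 CPM with LPS. All 7 macrophage markers were counted in every group, and their summed level ran from 16302 to 18325 CPM in untreated cells at 4 h, from 21531 to 23717 CPM at 24 h and from 47081 to 51047 CPM with LPS at 24 h. Most of that sum was Lyz2, the lysozyme gene, at 16237 ± 817 CPM untreated and 39727 ± 2185 CPM with LPS at 24 h, where Cd68, a lysosomal glycoprotein gene, went from 1185 ± 45.3 to 345 ± 22.4 CPM.

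Markers of other cell types were far lower but moved with the treatments. With LPS at 4 h, the summed neutrophil markers ran from 119 to 165 CPM against 42.3 to 62.7 untreated, with 5 of 9 tested markers called higher and none lower. The dendritic cell markers summed to 31.5 to 43.3 CPM against 4.93 to 7.18, with 5 of 8 called higher. The stromal and endothelial markers summed to 102 to 142 CPM against 14.4 to 21, with 3 of 4 called higher. The fibroblast genes Dcn and Lum were at 0 counts in untreated cells at both times. With LPS at 4 h no marker of this list was at 0. None of the 7 lymphocyte markers passed the filter. Their sum ran from 0.685 to 3.63 CPM with LPS at 4 h against 0.276 to 0.749 CPM untreated. Cd3e, which encodes a chain of the T cell receptor complex, was at 0 in both dexamethasone groups and with both agents at 24 h. The other groups had reads of Cd3e. In the 24 h comparison of both agents with LPS, the neutrophil markers summed to 17.4 to 23.5 CPM against 9.03 to 10.9, with 1 of 9 called higher and 2 lower. The dendritic cell markers summed to 0.983 to 1.36 CPM against 3.58 to 6.11 (2 of 8 lower, none higher), and the stromal markers to 3.19 to 4.05 against 26 to 28.4 (2 of 4 lower, none higher). Their part in the results on the members was not tested. In bulk RNA, fewer cells of a type and less RNA per cell cannot be told apart.

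With dexamethasone under LPS at 24 h, 25 of the 38 genes rose and 8 fell, where 21% of all tested genes rose and 22.6% fell. The median log2 fold change over the members was 0.31, and over all tested genes 0.0033. Most enzymes of the mitochondrial cycle were among the risers, and the cytosolic malic enzyme Me1, Acod1, the kinase Pdk1, the carboxylase Pcx and the cytosolic Idh1 were among those that fell. The cytosolic Mdh1, Aco1 and Got1 also rose, and the mitochondrial Me2 fell. The calls of Aco1, Got1 and Me2 were lost in some fits that left out 1 library. After 4 h of both agents 6 members were higher and 10 lower than with LPS, where 23.9% of all tested genes rose and 25.4% fell, and the members' median was 0.016, against -0.0044 over all tested genes. LPS alone gave 14 higher and 16 lower members at 4 h, where 34.2% of all tested genes rose and 38.8% fell, so that count stood near the background. At 24 h LPS gave 26 higher and 9 lower, where 29.7% rose and 30.6% fell. The median moved from -0.024 at 4 h to 0.39 at 24 h, beside -0.068 and -0.021 over all tested genes.

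**Figure D1:**
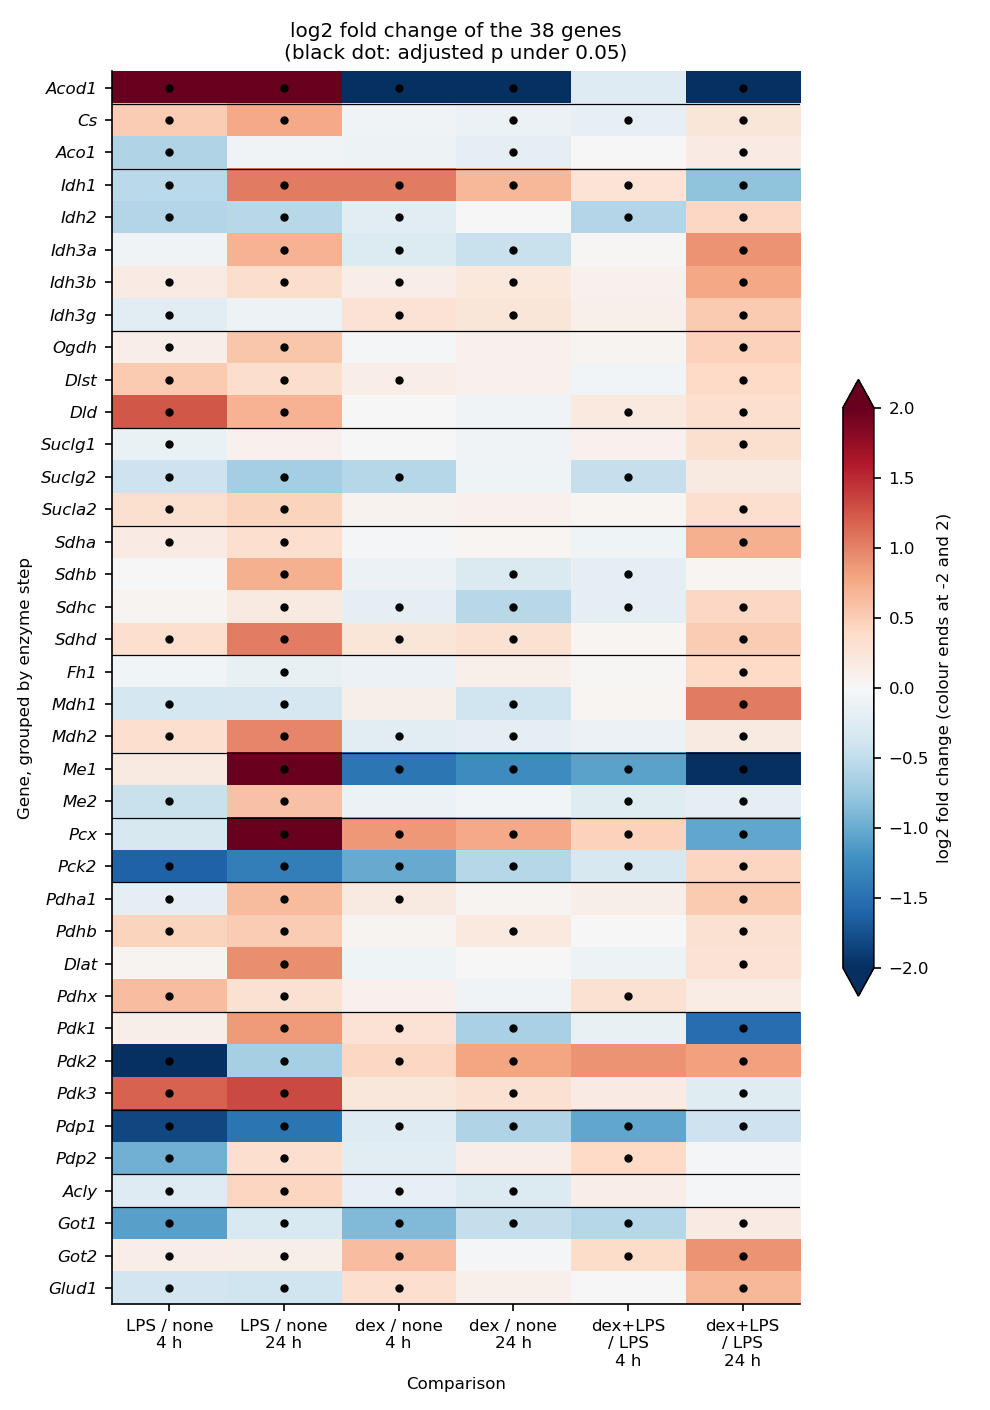
Log2 fold change of each of the 38 genes (rows, grouped by enzyme step) in the 6 treatment comparisons (columns), from blue for lower to red for higher, with the colour ending at -2 and 2; a black dot marks an adjusted p under 0.05. The right-hand column shows mostly red cells from citrate synthase to malate dehydrogenase, with Idh1 blue and Sdhb and Suclg2 not called, with 25 genes higher and 8 lower in all.

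Dexamethasone without LPS gave 11 higher and 11 lower at 4 h, with 17.6% and 23.7% over all tested genes, and 8 higher and 14 lower at 24 h, with 21.9% and 26.5%. The medians over the members were -0.03 and -0.039, beside -0.035 and -0.0037 over all tested genes. Several of these calls were lost in fits that left out 1 library. At 4 h the call was lost for Idh3b without untreated replicate 1 or 2 or dexamethasone replicate 2 or 3 (adjusted p 0.063 to 0.082), for Dlst without untreated replicate 1 or dexamethasone replicate 2 (adjusted p 0.072 to 0.11), and for Acly without untreated replicate 1 (adjusted p = 0.053). At 24 h it was lost for Cs without untreated replicate 1 or dexamethasone replicate 2 (adjusted p 0.11 to 0.17), for Aco1 without untreated replicate 1 or 3 or dexamethasone replicate 1 or 2 (adjusted p 0.068 to 0.14), and for Pdk3 without untreated replicate 2 or 3 or dexamethasone replicate 1 (adjusted p 0.054 to 0.11). Untreated cells themselves differed between the times. At 24 h 6 members were higher and 21 lower than at 4 h, where 30.6% and 30.4% of all tested genes were called, and the members' median was -0.30 against 0.011. Each treatment was compared with the cells of its own time.

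At 4 h the direction of small LPS effects depended on the scaling. Scaling by library size alone shifted the median of all tested genes by -0.77 on the log2 scale, and gave 3 higher and 34 lower members in place of 14 and 16. Of the 14 risers, Acod1, Dld and Pdk3 kept their sign under it, and the other 11 took a negative one. For both agents against LPS at 4 h the shift was 0.21, and the split became 24 higher and 5 lower in place of 6 and 10. The same scaling at 24 h shifted the LPS comparison by -0.20, giving 22 higher and 11 lower, and the comparison of both agents with LPS by 0.033, giving 25 and 6. All values below are relative to the TMM scaling.

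Acod1 encodes aconitate decarboxylase, the enzyme that makes itaconate, and its mRNA was the member with the widest range. It stood at 5.74, 1.38 and 2.72 CPM in the 3 untreated libraries at 4 h and at 10398, 10404 and 10179.5 CPM with LPS. At 24 h it stood at 1.99, 1.1 and 0.896 CPM untreated and at 3286, 3133 and 3277 CPM with LPS. The groups did not overlap at either time, and the log2 fold changes were 11.51 ± 0.27, adjusted p = 2e-17 at 4 h, and 11.26 ± 0.28, adjusted p = 1.4e-16 at 24 h. The untreated level rested on 184, 30 and 59 reads at 4 h, and without untreated replicate 1 the 4 h log2 fold change was 12.29. The test of the difference between the LPS effects at the 2 times gave -0.25 ± 0.49, adjusted p = 0.68, and without that library -1.04 with adjusted p = 0.024.

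With dexamethasone added to LPS, Acod1 stood at 8303, 8742 and 8951 CPM at 4 h, each below every library with LPS alone. That difference was -0.25 ± 0.16, adjusted p = 0.21 in the fit of all libraries, and -0.22 with adjusted p = 0.0019 in a fit of only the groups compared. After 24 h with both agents its level was 678, 652 and 726 CPM, below every library with LPS alone. The difference was -2.24 ± 0.17, adjusted p = 3.3e-09, a 4.72-fold lower level, and it differed from the 4 h effect by -1.99 ± 0.23, adjusted p = 1.6e-06. Without LPS, dexamethasone took Acod1 to 0.185, 0.978 and 1.14 CPM at 4 h and to 0.29, 0.0892 and 0.126 CPM at 24 h, the latter from 7, 2 and 3 reads. These falls were -2.17 ± 0.48, adjusted p = 0.0014, and -2.91 ± 0.86, adjusted p = 0.0095. The 4 h fall was -1.38 without untreated replicate 1 and had adjusted p = 0.054 in the fit of only the groups compared, and the 24 h fall was -3.54 without dexamethasone replicate 1. At 4 h the fall was smaller with LPS than without by 1.91 ± 0.52 (adjusted p = 0.0068; 1.13 and adjusted p = 0.041 without untreated replicate 1). Per kilobase of exon, Acod1 was the most abundant member in all 4 LPS groups, at 3937 CPM per kilobase with LPS at 4 h and 261 with both agents at 24 h, and it stood last or next to last among the 38 in the groups without LPS.

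**Figure D2:**
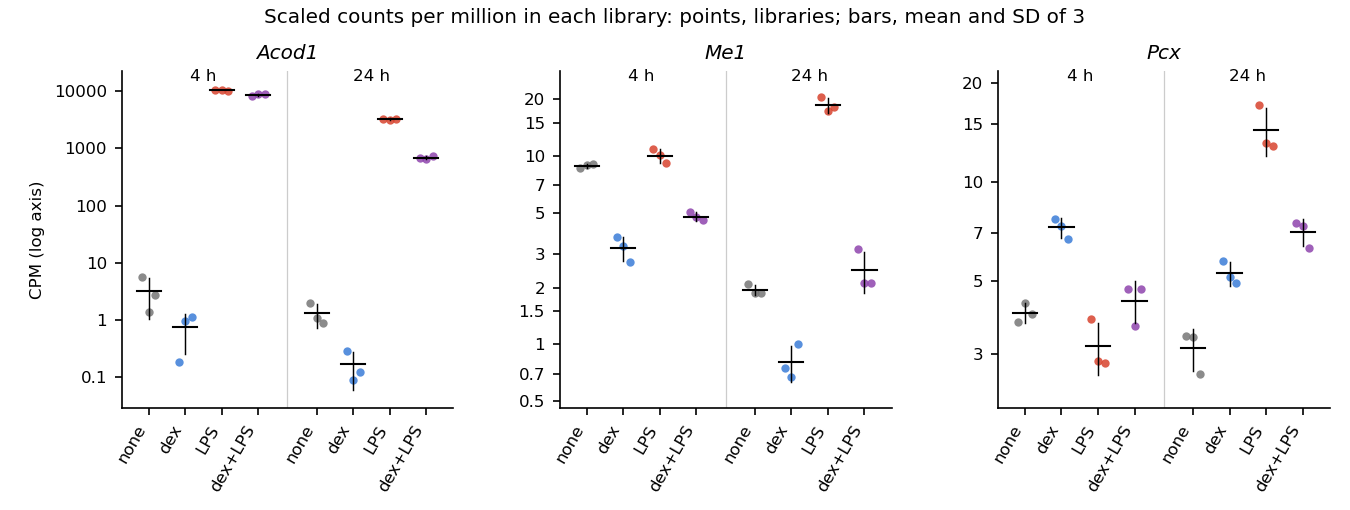
CPM (log axis) of Acod1, Me1 and Pcx in each library by treatment (none, dex for dexamethasone, LPS, both) at 4 h and 24 h; points are libraries, horizontal bars the mean and vertical bars the SD of 3. For all 3 genes the libraries with both agents at 24 h sit below those with LPS alone, while at 4 h only Acod1 and Me1 show that order without overlap.

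The promoters of Acod1 and Pdk2 are shown because these genes made the largest rise and the largest fall with LPS at 4 h, and that of Sdha because 3 copies of the NRF1 motif stand in its window, 2 of them in the stretch printed, and its gene rose with both agents at 24 h. The sequences are RefSeq windows of build GRCm38.p6 read 5′ to 3′ on the gene's strand and were cut before the earliest annotated start of the gene. Capitals mark the motifs found in the stretches printed.
Acod1 (chr14:103046762-103046976, plus strand): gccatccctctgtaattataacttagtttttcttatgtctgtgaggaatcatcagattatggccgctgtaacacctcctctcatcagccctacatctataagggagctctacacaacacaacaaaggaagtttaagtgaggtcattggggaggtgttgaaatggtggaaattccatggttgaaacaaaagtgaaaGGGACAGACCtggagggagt
Pdk2 (chr11:95041372-95041621, minus strand): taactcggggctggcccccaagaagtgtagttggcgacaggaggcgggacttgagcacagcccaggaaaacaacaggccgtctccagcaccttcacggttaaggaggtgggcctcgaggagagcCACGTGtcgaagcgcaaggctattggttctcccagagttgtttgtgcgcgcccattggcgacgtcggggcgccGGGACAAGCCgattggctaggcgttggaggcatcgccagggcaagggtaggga
Sdha (chr13:74350281-74350490, minus strand): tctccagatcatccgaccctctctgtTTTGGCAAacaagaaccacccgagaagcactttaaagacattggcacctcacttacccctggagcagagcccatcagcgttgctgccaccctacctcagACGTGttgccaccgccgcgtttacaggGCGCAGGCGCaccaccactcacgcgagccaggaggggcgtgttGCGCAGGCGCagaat
In Acod1 and Pdk2 the capitals near the 3′ end are matches to the NF-kappa B motif GGGANNNNCC, and in Pdk2 the capitals further upstream are the E-box CACGTG, which contains the hypoxia response core ACGTG. The Acod1 window also holds ACGTG on the opposite strand, in the bases cut and so not printed. In Sdha they are, in order, the C/EBP motif TTGCNNAA on the opposite strand, ACGTG, and GCGCANGCGC for NRF1, a factor of genes for mitochondrial proteins.

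Each motif was searched on both strands of the 250 bases before the gene start. RefSeq windows were found for 34 of the 38 members, 44 windows in all since some genes have several, and for none of Idh3a, Me2, Pdp1 and Sdhc. The NF-kappa B motif was in 16 of the 44 windows, and in 17.63% of the 32851 windows of all genes. ACGTG was in 17 of the 44 and in 16.57% of all windows, and CACGTG in 6 of the 44 and in 6.02% of all. Several of these windows belong to Ogdh, so by gene ACGTG was in 12 and CACGTG in 4 of the 34 members. The shares of all windows were not counted by gene. NRF1 matches were in 3 of the 44 and in 3.74% of all windows. TTGCNNAA was in 5 of the 44, in windows of 4 members, and in 9.56% of all. A pair of glucocorticoid receptor half-sites, ACANNNTGT, was in 3 of the 44, all of them windows of Ogdh, and in 5.84% of all. The interferon motif GAAANNGAAA and the estrogen-related receptor motif AAGGTCA were in 1 window each, against 2.98% and 4.08% of all. These matches describe letters and name no bound factor.

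Among the pyruvate dehydrogenase genes, the subunits split at 4 h of LPS and rose at 24 h. Pdha1 and Pdhb encode the alpha and beta chains of the first enzyme (E1), Dlat the acetyltransferase core (E2), Pdhx the protein that binds E3, and Dld the E3 enzyme itself, which the 2-oxoglutarate dehydrogenase complex also uses. With LPS at 4 h Pdhb and Pdhx were higher (0.45 ± 0.057 and 0.62 ± 0.088, but -0.32 and -0.14 with library size scaling) and Pdha1 lower (-0.18 ± 0.058, adjusted p = 0.0052; not called by DESeq2, adjusted p = 0.055). With LPS at 24 h all 4 of Pdha1, Pdhb, Dlat and Pdhx rose, by 0.63 ± 0.058, 0.51 ± 0.057, 0.92 ± 0.066 and 0.30 ± 0.092 (adjusted p at most 0.005), and Pdhx lost its call with library size scaling (adjusted p = 0.36). Adding dexamethasone raised Pdha1, Pdhb and Dlat further at 24 h, by 0.53 ± 0.056, 0.31 ± 0.056 and 0.29 ± 0.063 (adjusted p at most 0.00023), and Pdhx gave 0.15 ± 0.091, adjusted p = 0.2. Pdha1 thus stood at 50.9, 49.2 and 46.7 CPM untreated, 70.4, 78.1 and 77.9 CPM with LPS and 102, 111 and 112 CPM with both agents, with no overlap between these groups. Of the exon bases of Pdha1, 16.1% are shared with Map3k15 in the annotation, and without strand the reads there cannot be told apart.

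Dld made the largest rise after Acod1 with LPS at 4 h. Its level went from 91.5, 90.9 and 88.7 CPM untreated to 216, 215 and 211 CPM with LPS, a rise of 1.24 ± 0.048, adjusted p = 3.7e-23. Dexamethasone added at 4 h brought it to 250.5, 235 and 246 CPM, above LPS alone by 0.19 ± 0.047, adjusted p = 0.00094. The rise with LPS was smaller at 24 h, from 75.7, 72.5 and 70.4 to 112, 119.6 and 121 CPM (0.69 ± 0.049, adjusted p = 6.3e-15), and the difference between the times was -0.56 ± 0.068, adjusted p = 6.8e-09. With library size scaling alone that difference was 0.014 with adjusted p = 0.87. Both agents at 24 h gave 147, 147 and 152 CPM, above LPS alone by 0.34 ± 0.048.

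The 3 tested kinases of the complex went separate ways. Pdk2 fell to near the counting limit with LPS at 4 h, from 7.09, 7.7 and 9.8 CPM to 0.366, 0.685 and 0.313 CPM, the latter from 7, 12 and 5 reads. The fall was -4.14 ± 0.25, adjusted p = 4.8e-17. At 24 h Pdk2 stood at 12.2, 13.1 and 12.6 CPM untreated and 8.31, 8.33 and 7.15 CPM with LPS, a fall of -0.67 ± 0.14, adjusted p = 0.00011, so the LPS effect differed between the times by 3.47 ± 0.31, adjusted p = 4.7e-12. Dexamethasone took the 24 h level to 22, 21.5 and 21.9 CPM without LPS and to 13.8, 15.8 and 12.3 CPM with it, rises of 0.79 ± 0.13, adjusted p = 4.1e-06, and 0.81 ± 0.14, adjusted p = 1.3e-05. Under LPS at 4 h it was 1.19, 0.303 and 0.997 CPM, a difference of 0.89 ± 0.40, adjusted p = 0.064. It was called by DESeq2 (adjusted p = 0.042) and, in edgeR, without LPS replicate 2 (adjusted p = 0.025) or without both-agent replicate 2 (adjusted p = 0.0054). The rise without LPS at 4 h, 0.42 ± 0.14, lost its call without untreated replicate 1 or 2 or dexamethasone replicate 3 (adjusted p 0.054 to 0.12).

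Pdk1, a kinase gene known as a hypoxia-inducible factor target, moved at 24 h and little at 4 h. It stood at 87.8, 73.1 and 88.1 CPM untreated at 24 h and rose to 137, 154 and 158 CPM with LPS (0.85 ± 0.073, adjusted p = 3.9e-12). Dexamethasone brought it to 51.9, 54.3 and 53.4 CPM without LPS and to 54.4, 48.5 and 52.5 CPM with LPS, falls of -0.64 ± 0.076, adjusted p = 1e-08, and -1.53 ± 0.077, adjusted p = 8.2e-18. All 6 libraries with dexamethasone at 24 h were therefore below all 6 without it. Its 4 h levels were 76.3, 78.5 and 88.6 CPM with LPS and 75.4, 78.6 and 66.5 CPM with both agents, which overlapped, and the dexamethasone effect under LPS differed between the times by -1.39 ± 0.11, adjusted p = 1.8e-12. Without LPS at 4 h dexamethasone raised Pdk1 by 0.29 ± 0.074 (adjusted p = 0.002), the opposite sign to 24 h.

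Pdk3 rose with LPS at both times. Its levels were 13.4, 13.3 and 11.5 CPM untreated and 27.7, 27.6 and 31.6 CPM with LPS at 4 h, and 11.2, 10.7 and 10.5 and 24.6, 29.5 and 26.8 CPM at 24 h. The rises were 1.18 ± 0.10, adjusted p = 9e-13, and 1.32 ± 0.10, adjusted p = 1.3e-13. Both agents at 24 h gave 20.1, 24.9 and 23.5 CPM, which overlapped LPS alone, and the fall of -0.24 ± 0.10 (adjusted p = 0.049) was lost without LPS replicate 2 or 3 or both-agent replicate 1 or 3 (adjusted p 0.074 to 0.29) and with DESeq2 (adjusted p = 0.085). Pdk4 was below the filter, with 1 read over all 24 libraries.

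The phosphatase Pdp1 fell with LPS at both times and fell further with dexamethasone. It was at 25.4, 22.3 and 25.5 CPM untreated, 7.53, 5.54 and 7.69 CPM with LPS and 3.74, 2.85 and 3.43 CPM with both agents at 4 h. The steps were -1.82 ± 0.11, adjusted p = 3.3e-17, and -1.04 ± 0.15, adjusted p = 1.7e-07. The corresponding 24 h levels were 33.8, 34.2 and 34.4, then 13.3, 11 and 12.9, then 9.27, 9.11 and 9.66 CPM, with steps of -1.46 ± 0.10, adjusted p = 1.5e-15, and -0.41 ± 0.11, adjusted p = 0.0028. None of these neighbouring groups overlapped. Without LPS dexamethasone lowered Pdp1 at 24 h to 20.4, 22.8 and 24 CPM (-0.61 ± 0.092, adjusted p = 8.5e-07). The 4 h fall without LPS, -0.26 ± 0.094, lost its call without untreated replicate 1 or 3 or dexamethasone replicate 3 (adjusted p 0.086 to 0.099), and the effect at 4 h was lower with LPS than without, the difference being -0.78 ± 0.17, adjusted p = 0.00043.

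Pdp2, the second phosphatase, fell from 21.8, 21.4 and 24.8 CPM to 11.2, 13.7 and 9.94 CPM with LPS at 4 h (-0.96 ± 0.10, adjusted p = 6.8e-11) and was 14.9, 16.9 and 14.1 CPM with both agents, above LPS alone by 0.39 ± 0.11, adjusted p = 0.002. At 24 h Pdp2 was higher with LPS, at 22.2, 22.9 and 21.5 against 16.9, 18.3 and 17.7 CPM (0.33 ± 0.093, adjusted p = 0.0025), a call lost with library size scaling (0.13, adjusted p = 0.23), and with both agents it was 22.7, 21.3 and 21.5 CPM, which overlapped LPS alone.

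**Figure D3:**
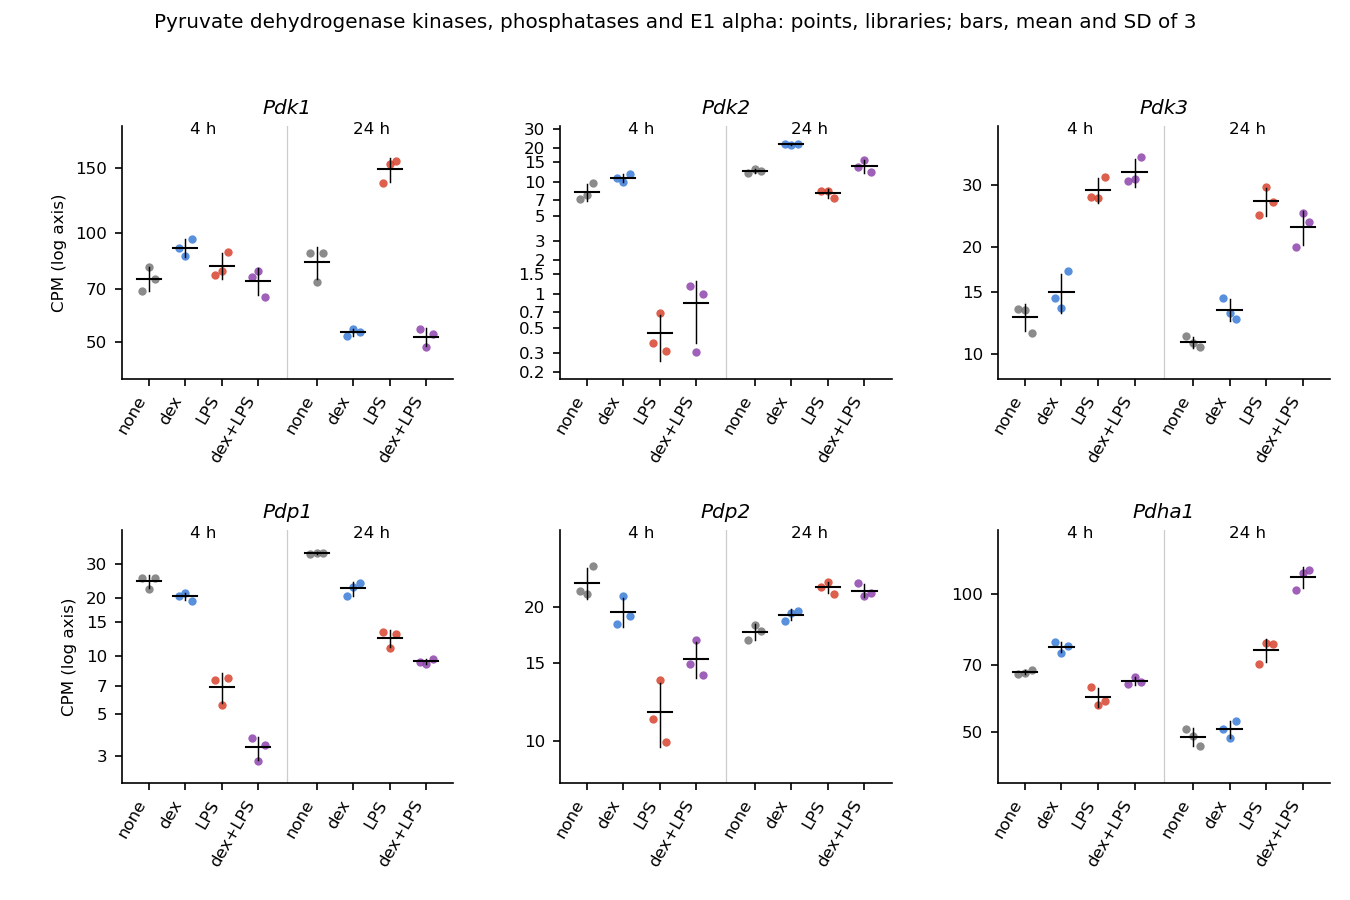
CPM (log axis) of the kinase genes Pdk1, Pdk2 and Pdk3, the phosphatase genes Pdp1 and Pdp2 and the E1 alpha gene Pdha1 in each library by treatment and time; points are libraries, horizontal bars the mean and vertical bars the SD of 3. Pdk2 is at most 1.19 CPM in the 6 libraries with LPS at 4 h, and Pdk1 at 24 h is lower in all libraries with dexamethasone than in those without.

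With both agents against LPS at 24 h, the 4 genes of mitochondrial isocitrate dehydrogenases rose and that of the cytosolic one fell. Idh3a, Idh3b and Idh3g encode the mitochondrial NAD-dependent enzyme of the cycle, Idh2 the mitochondrial NADP-dependent one and Idh1 the cytosolic one. Idh3a was at 30.4, 30.7 and 29.3 CPM untreated at 24 h, 22.8, 22.1 and 21.3 with dexamethasone, 50.4, 47.6 and 48.9 with LPS and 99.2, 90.3 and 85.3 CPM with both agents, and these groups did not overlap. Dexamethasone thus lowered it without LPS (-0.45 ± 0.079, adjusted p = 1e-05) and raised it with LPS (0.90 ± 0.071, adjusted p = 3.3e-13), a difference of 1.35 ± 0.11, adjusted p = 4.6e-13. At 4 h the LPS libraries stood at 79, 62.6 and 71.1 CPM and those with both agents at 76.8, 73.9 and 65.6 CPM, which overlapped. Idh3b and Idh3g rose with both agents over LPS at 24 h by 0.78 ± 0.048 and 0.52 ± 0.061, and at 4 h gave 0.082 ± 0.05 and 0.095 ± 0.064, with adjusted p of 0.18 and 0.23.

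Idh2 changed sign with time. With both agents at 4 h it was 38.9, 36.5 and 34.5 CPM against 58.3, 56 and 51.4 CPM with LPS (-0.59 ± 0.079, adjusted p = 6.9e-08), and at 24 h 44.3, 52.4 and 56 against 40.2, 35.9 and 38.9 CPM (0.41 ± 0.078, adjusted p = 4.3e-05). The groups did not overlap at either time, and the difference between the times was 1.0 ± 0.11, adjusted p = 2.7e-09. LPS alone lowered Idh2 at both times, with log2 fold changes of -0.58 and -0.55. Without LPS its call at 4 h with dexamethasone, -0.22 ± 0.072, was lost without untreated replicate 1 (adjusted p = 0.1).

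Idh1 had the opposite signs to Idh2 with both agents. Dexamethasone without LPS raised it from 123, 121 and 119 to 248, 243 and 252 CPM at 4 h and from 279.5, 282 and 272 to 455, 442 and 419.9 CPM at 24 h. These rises were 1.04 ± 0.074, adjusted p = 7e-13, and 0.66 ± 0.073, adjusted p = 5.4e-09. LPS lowered it at 4 h, to 90.6, 79.9 and 78.1 CPM (-0.54 ± 0.077, adjusted p = 2.4e-07), and raised it at 24 h, to 589.8, 584 and 542 CPM (1.04 ± 0.073, adjusted p = 1.2e-13). With both agents at 24 h it was 351, 314 and 313 CPM, below either agent alone, and the fall against LPS was -0.81 ± 0.073, adjusted p = 8.6e-11. The dexamethasone effect at 24 h was lower with LPS than without, the difference being -1.47 ± 0.10, adjusted p = 4.8e-13. At 4 h with both agents it was 107, 112 and 80.8 CPM, and the rise over LPS of 0.27 ± 0.078 (adjusted p = 0.0048) was lost without both-agent replicate 2 (adjusted p = 0.055). At 4 h too the effect was lower with LPS than without (-0.77 ± 0.11, adjusted p = 9.4e-07).

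Citrate synthase (Cs) makes citrate, and its mRNA rose with LPS at 24 h by 0.76 ± 0.046 (adjusted p = 5e-17) and with both agents over LPS by 0.24 ± 0.045 (adjusted p = 4e-05). The 4 h rise with LPS, 0.51 ± 0.045, became -0.26 with library size scaling. Cytosolic aconitase Aco1 fell with LPS at 4 h (-0.61 ± 0.07, adjusted p = 1e-09), and its rise with both agents at 24 h, 0.17 ± 0.068 (adjusted p = 0.042), was lost without LPS replicate 1 or 2 or both-agent replicate 1, 2 or 3 (adjusted p 0.072 to 0.24).

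In the 2-oxoglutarate dehydrogenase complex, which makes succinyl-CoA, Ogdh encodes the E1 and Dlst the E2 enzyme. With LPS at 24 h Ogdh rose by 0.56 ± 0.056 and Dlst by 0.35 ± 0.047, and with both agents over LPS they rose by 0.46 ± 0.055 and 0.40 ± 0.047 (adjusted p at most 4.6e-08 for all 4). At 4 h neither was called with both agents against LPS (0.058 and -0.052, adjusted p = 0.42 and 0.38). The LPS effect on Ogdh at 4 h, 0.14 ± 0.056, became -0.63 with library size scaling and lost its call without untreated replicate 3 or LPS replicate 1 (adjusted p 0.13 to 0.18). That on Dlst, 0.52 ± 0.047, became -0.25 with that scaling.

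Succinate-CoA ligase turns succinyl-CoA into succinate. Suclg1 encodes its shared alpha subunit, Sucla2 the ATP-forming and Suclg2 the GTP-forming beta subunit. Suclg2 fell with LPS at 24 h from 20.5, 18.6 and 20.4 to 11.9, 12.6 and 12.6 CPM (-0.68 ± 0.11, adjusted p = 6.4e-07), where Sucla2 rose by 0.44 ± 0.059 (adjusted p = 3.8e-08). Adding dexamethasone raised Suclg1 and Sucla2 at 24 h by 0.32 ± 0.059 and 0.33 ± 0.058, and Suclg2 at 13.1, 16.1 and 13 CPM gave 0.19 ± 0.11, adjusted p = 0.18. At 4 h Suclg2 was lower with LPS (-0.41), with dexamethasone (-0.57) and with both agents over LPS (-0.46), with adjusted p at most 0.00022. The LPS effect on Suclg1 at 4 h, -0.14 ± 0.059, lost its call without untreated replicate 3 or LPS replicate 2 or 3 (adjusted p 0.075 to 0.18) and with DESeq2 (adjusted p = 0.24).

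Succinate dehydrogenase, the target of itaconate and complex II of the respiratory chain, has 4 subunits. Sdha encodes the flavoprotein, Sdhb the iron-sulfur protein, and Sdhc and Sdhd the membrane anchors. With LPS at 24 h all 4 rose, by 0.34 ± 0.047, 0.72 ± 0.064, 0.17 ± 0.048 and 1.02 ± 0.057, but Sdhc gave -0.028 with library size scaling. With both agents over LPS, Sdha, Sdhc and Sdhd rose by 0.71 ± 0.046, 0.41 ± 0.048 and 0.51 ± 0.056, and Sdhb gave 0.035 ± 0.063, adjusted p = 0.7. Sdha stood at 271, 283 and 278 CPM with LPS and 458, 446 and 458 CPM with both agents at 24 h. The same groups stood at 4 h at 274, 251 and 259 and 248, 246 and 242 CPM, a difference of -0.093 ± 0.047, adjusted p = 0.1. The difference between the times was 0.80 ± 0.066, adjusted p = 1.9e-12. The 4 h difference was called lower by DESeq2, at -0.12 (adjusted p = 0.0092), and higher with library size scaling, at 0.13 (adjusted p = 0.017). Without LPS at 24 h dexamethasone lowered Sdhc (-0.56 ± 0.049) and Sdhb (-0.29 ± 0.066) and raised Sdhd (0.30 ± 0.058), with adjusted p at most 0.0003.

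**Figure D4:**
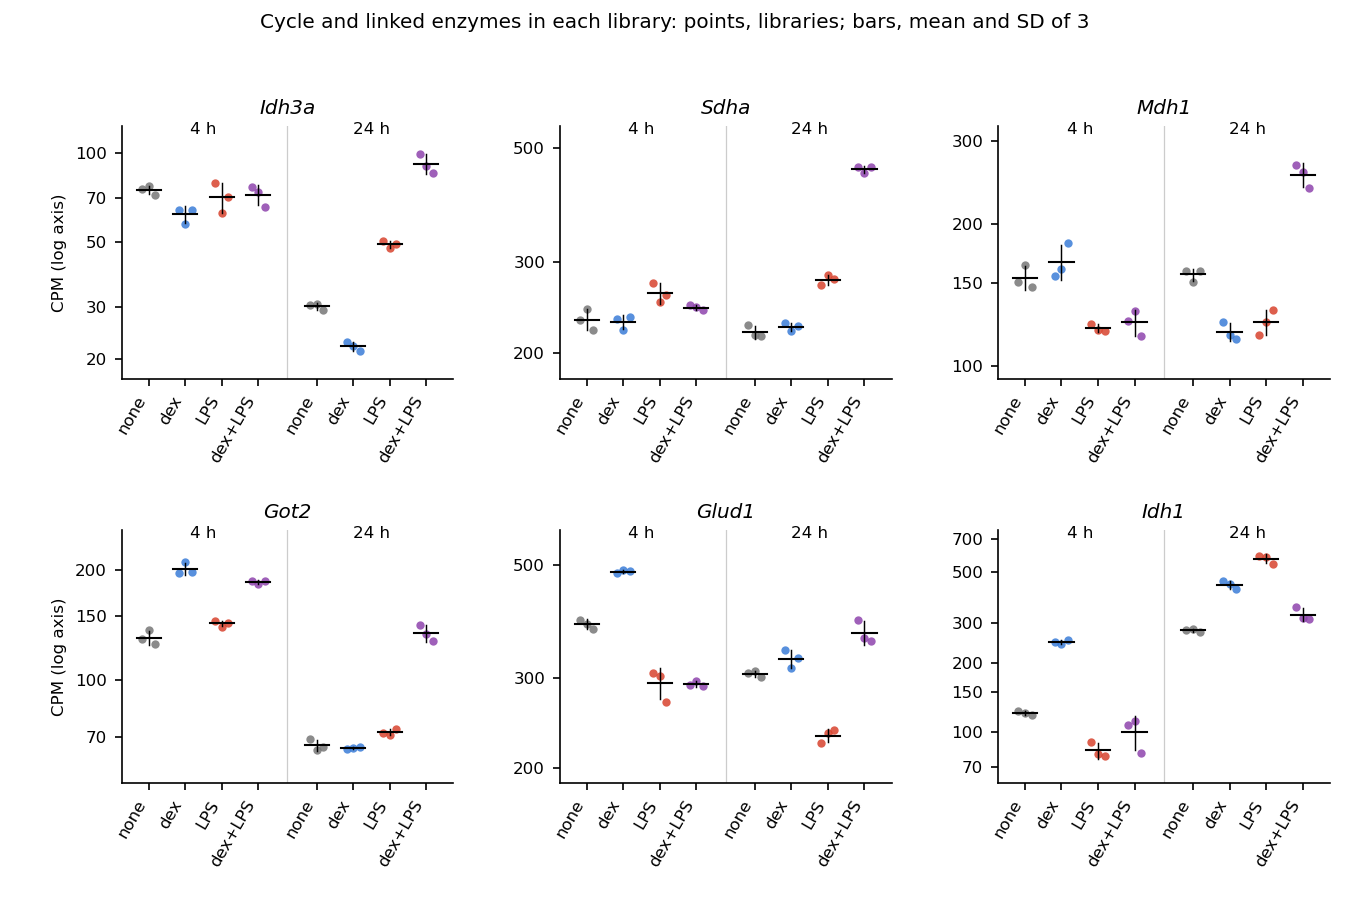
CPM (log axis) of Idh3a, Sdha, Mdh1, Got2, Glud1 and Idh1 in each library by treatment and time; points are libraries, horizontal bars the mean and vertical bars the SD of 3. At 24 h the libraries with both agents stand above all others for Idh3a, Sdha, Mdh1 and Got2, and below those with LPS alone for Idh1.

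Fumarase (Fh1) hydrates fumarate to malate, and malate dehydrogenase oxidises malate to oxaloacetate in the mitochondrion (Mdh2) and in the cytosol (Mdh1). Mdh1 made the largest rise of any member with both agents over LPS at 24 h. It was at 159, 151 and 159 CPM untreated, 124, 116 and 114 with dexamethasone, 116, 124 and 131 with LPS and 267, 259 and 239 CPM with both agents. Dexamethasone alone lowered it (-0.40 ± 0.06) as did LPS alone (-0.34 ± 0.06), and dexamethasone raised it in the presence of LPS by 1.04 ± 0.061, adjusted p = 7e-17. The dexamethasone effect with LPS exceeded that without by 1.44 ± 0.085, adjusted p = 2.1e-16. The 4 h levels were 123, 119 and 119 CPM with LPS and 125, 131 and 116 CPM with both agents, which overlapped. Mdh2 rose with LPS at 24 h by 0.98 ± 0.053 and with both agents over LPS by 0.18 ± 0.052. Fh1 rose with both agents over LPS by 0.40 ± 0.065, adjusted p = 2.7e-06, and its fall with LPS, -0.15 ± 0.065, lost its call without untreated replicate 2 or LPS replicate 1 (adjusted p 0.26 to 0.33) and with DESeq2 (adjusted p = 0.063).

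The malic enzymes turn malate into pyruvate, Me1 in the cytosol with release of NADPH and Me2 in the mitochondrion. Me1 fell with dexamethasone in all 4 settings. At 4 h it was at 8.58, 8.94 and 9.02 CPM untreated and 3.7, 3.32 and 2.75 with dexamethasone, and at 10.8, 10.1 and 9.13 CPM with LPS and 5.04, 4.72 and 4.54 with both agents. At 24 h it was at 2.08, 1.88 and 1.88 CPM untreated and 0.746, 0.669 and 1.01 with dexamethasone, and at 20.5, 17.2 and 18.2 CPM with LPS and 3.19, 2.12 and 2.13 with both. No dexamethasone group overlapped its comparator. The falls were -1.44 ± 0.15 and -1.07 ± 0.15 at 4 h, and -1.26 ± 0.23 and -2.91 ± 0.16 at 24 h (adjusted p at most 2.2e-05). The rise of Me1 with LPS at 24 h was 3.26 ± 0.16, adjusted p = 8.1e-20, and it exceeded the 4 h value, 0.18 ± 0.14 (adjusted p = 0.23), by 3.07 ± 0.21, adjusted p = 2.4e-15. The dexamethasone fall under LPS was deeper at 24 h than at 4 h (difference -1.83 ± 0.22, adjusted p = 1.5e-08), and at 24 h deeper with LPS than without (difference -1.65 ± 0.30, adjusted p = 2.3e-05). Me2 rose with LPS at 24 h (0.59 ± 0.066, adjusted p = 1e-09), and its fall with both agents, -0.17 ± 0.066, was lost without LPS replicate 2 or 3 or both-agent replicate 1, 2 or 3 (adjusted p 0.054 to 0.13) and with DESeq2 (adjusted p = 0.054).

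Pcx encodes pyruvate carboxylase, which refills oxaloacetate, and was low throughout, at most 17.2 CPM in a library. Dexamethasone without LPS raised it from 3.75, 4.29 and 3.96 to 7.73, 7.36 and 6.73 CPM at 4 h and from 3.4, 3.36 and 2.6 to 5.76, 5.13 and 4.91 CPM at 24 h (0.87 ± 0.16, adjusted p = 1.8e-05, and 0.75 ± 0.17, adjusted p = 0.00026). LPS raised it at 24 h to 17.2, 13.2 and 12.9 CPM (2.21 ± 0.16, adjusted p = 4.7e-15), where at 4 h it stood at 3.82, 2.85 and 2.81 CPM (-0.32 ± 0.18, adjusted p = 0.1). The LPS effect differed between the times by 2.53 ± 0.24, adjusted p = 1.1e-11. Pcx with both agents at 24 h was at 7.49, 7.35 and 6.28 CPM, a fall against LPS of -1.04 ± 0.14, adjusted p = 1.8e-07, so the sign of the dexamethasone effect turned with LPS (difference -1.79 ± 0.22, adjusted p = 2e-08). At 4 h both agents gave 4.73, 3.63 and 4.71 CPM. That rise over LPS, 0.46 ± 0.18 (adjusted p = 0.037), was lost without LPS replicate 2 or 3 or both-agent replicate 1 or 3 (adjusted p 0.11 to 0.12), with no filter on low counts (adjusted p = 0.058) and in the fit of only the groups compared (adjusted p = 0.093). The effect at 24 h was lower than that at 4 h (difference -1.49 ± 0.23, adjusted p = 2.3e-06).

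Pck2, the mitochondrial enzyme that makes phosphoenolpyruvate from oxaloacetate, fell with each agent. At 4 h it stood at 41.1, 44.4 and 47.6 CPM untreated, 19.5, 22.4 and 24.5 with dexamethasone and 11.9, 17 and 14.4 with LPS, falls of -1.0 ± 0.094, adjusted p = 2.7e-11, and -1.62 ± 0.10, adjusted p = 7e-17. Its 24 h levels were 45.6, 42.3 and 46.1 CPM untreated, 28, 29.1 and 32.9 with dexamethasone and 17.1, 16.3 and 17.7 with LPS (-0.57 ± 0.091, adjusted p = 2.1e-06, and -1.39 ± 0.10, adjusted p = 3.8e-15). With both agents at 24 h it was 24.4, 22.2 and 22.1 CPM, above LPS alone by 0.43 ± 0.10, adjusted p = 0.00075, so the dexamethasone effect was higher with LPS than without by 1.0 ± 0.14, adjusted p = 1.9e-07. At 4 h the fall against LPS, -0.32 ± 0.11, was lost without LPS replicate 2 or both-agent replicate 2 (adjusted p 0.12 to 0.24) and in the fit of only the groups compared (adjusted p = 0.11). Acly, which splits exported citrate into cytosolic acetyl-CoA, rose with LPS at 24 h by 0.43 ± 0.054 (adjusted p = 8.1e-09), and with both agents it gave -0.022 ± 0.054, adjusted p = 0.78.

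Glutamate and aspartate feed the cycle at 2-oxoglutarate and oxaloacetate. Got2 encodes the mitochondrial and Got1 the cytosolic aspartate aminotransferase, and Glud1 glutamate dehydrogenase. Got2 stood at 129, 137 and 126 CPM untreated and 196, 210.0 and 198 with dexamethasone at 4 h, and at 145, 140.0 and 143 CPM with LPS and 186, 183 and 186 with both. At 24 h the levels were 69.1, 64.3 and 65.8 CPM untreated, 65, 65.3 and 65.9 with dexamethasone, 71.8, 70.8 and 73.5 with LPS and 142, 134 and 128 with both. Dexamethasone therefore raised it at 4 h without LPS (0.62 ± 0.048, adjusted p = 1.8e-13) and with LPS (0.37 ± 0.049, adjusted p = 4e-08), and at 24 h with LPS (0.90 ± 0.05, adjusted p = 2.3e-17), while at 24 h without LPS the groups overlapped (-0.022 ± 0.051, adjusted p = 0.76). The difference between with and without LPS at 24 h was 0.92 ± 0.072, adjusted p = 3.2e-13. Its LPS effects, 0.13 ± 0.049 and 0.12 ± 0.051, became -0.64 and -0.082 with library size scaling. The 4 h call was lost without untreated replicate 1 or 3 or LPS replicate 1 (adjusted p 0.058 to 0.11), and the 24 h call without untreated replicate 2 or 3 or LPS replicate 1, 2 or 3 (adjusted p 0.055 to 0.17). In the annotation 9% of its exon bases are shared with Gm45760.

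Glud1 fell with LPS at 24 h to 223, 234 and 237 CPM from 306, 309 and 301 CPM, and with both agents it was 390.3, 359 and 355 CPM, above LPS by 0.67 ± 0.05, adjusted p = 7e-14. Got1 was lower at 4 h with LPS (-1.09 ± 0.062), with dexamethasone (-0.88 ± 0.06) and with both agents against LPS (-0.57 ± 0.068), with adjusted p at most 5.7e-09. At 24 h its rise over LPS, 0.16 ± 0.06 (adjusted p = 0.024), lost its call without LPS replicate 1 or 3 or both-agent replicate 1 (adjusted p 0.054 to 0.18). The cytosolic and mitochondrial aminotransferases thus had opposite signs with dexamethasone at 4 h, with and without LPS.

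Read together at 24 h, the mitochondrial enzymes from Cs to Mdh2 (17 genes, a grouping made after the values were seen) included 15 that rose and none that fell with both agents over LPS, where 21% and 22.6% of all tested genes did, with a median of 0.40. At 4 h 1 of the 17 rose and 5 fell, where 23.9% and 25.4% of all tested genes did, with a median of 0.022. The group means of 19 of the 38 genes were highest with both agents at 24 h, from Idh3a to Fh1. Of the 38, 14 had their lowest mean with dexamethasone alone at 24 h, among them Idh3a, Mdh2, Cs and Sdhb. The shares of all tested genes with their highest or lowest mean in these groups were not counted. Nothing particular to the members is therefore read from the 19 and the 14.

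**Figure D5:**
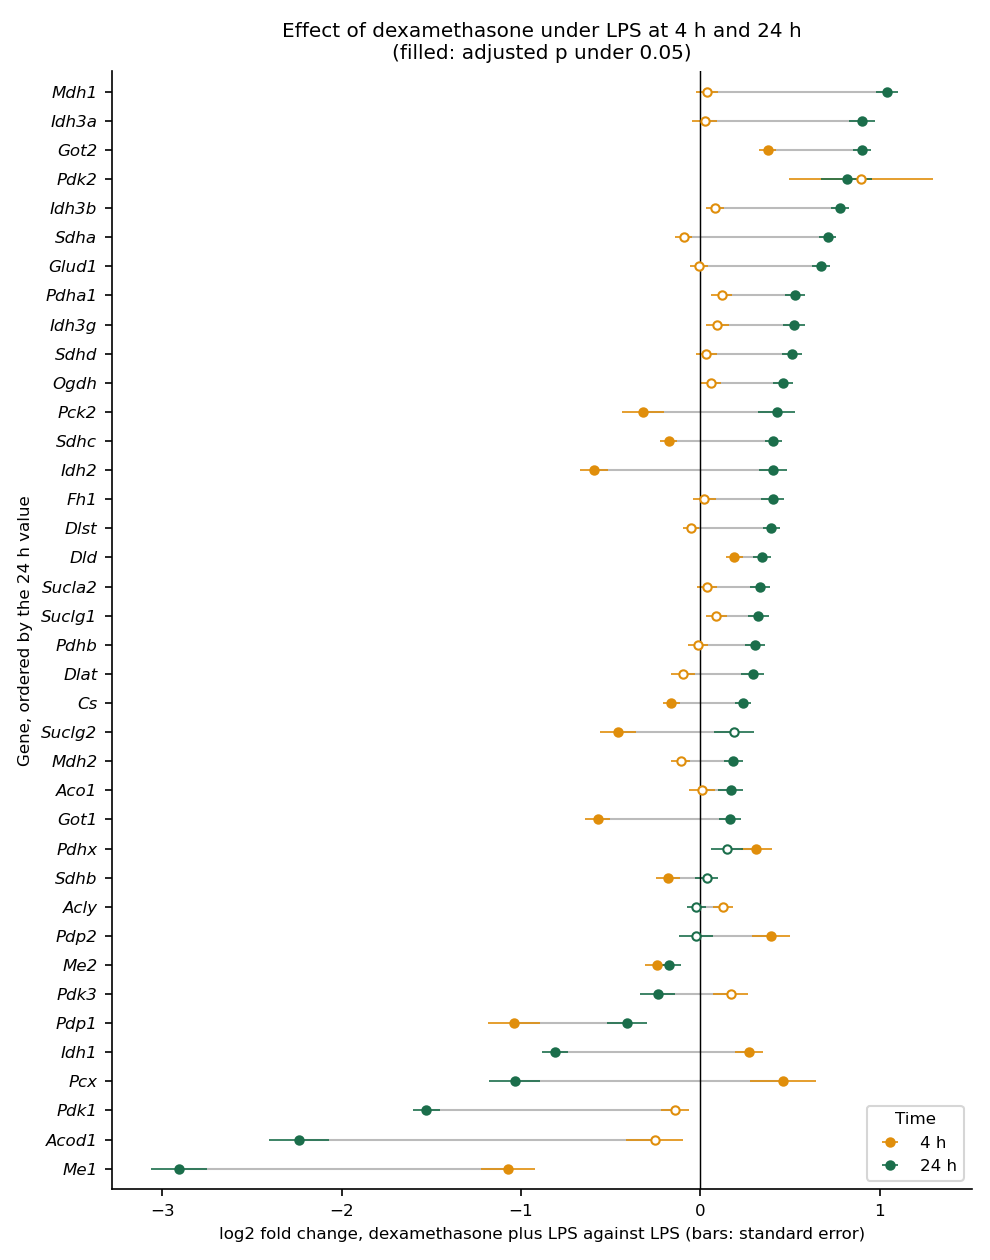
Log2 fold change of each of the 38 genes with dexamethasone plus LPS against LPS at 4 h (orange) and 24 h (green), ordered by the 24 h value; bars are the standard error and filled points have an adjusted p under 0.05. From Mdh1 (1.04) at the top to Me1 (-2.91) at the bottom, 25 genes lie above 0 past the threshold at 24 h and 6 at 4 h.

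The dexamethasone effect under LPS differed between 24 h and 4 h for 31 of 38 members, 24 of them upward and 7 downward, where 38.8% of all tested genes differed, and the members' median difference was 0.39 against -0.017. With library size scaling the split was 17 upward and 9 downward. Of the 6 members higher at 4 h with both agents, Dld and Got2 were also higher at 24 h, Idh1 and Pcx were lower, and Pdhx and Pdp2 were not called. Of the 10 lower at 4 h, 5 were higher at 24 h (Cs, Idh2, Sdhc, Pck2 and Got1), and Me1, Me2 and Pdp1 were lower again. The 4 h fall of Me2, -0.24 ± 0.069, lost its call with library size scaling (-0.02, adjusted p = 0.84) and in the fit of only the groups compared (adjusted p = 0.066). The falls of Cs, Sdhc and Sdhb at 4 h, -0.16 ± 0.045, -0.18 ± 0.05 and -0.18 ± 0.066, became 0.06, 0.045 and 0.041 with library size scaling and had adjusted p of 0.082, 0.066 and 0.099 in the fit of only the groups compared. Sdhb also lost its call without LPS replicate 1 or both-agent replicate 2 or 3 (adjusted p 0.057 to 0.15).

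At 24 h the dexamethasone effect differed with and without LPS for 30 of 38 members, where 38.2% of all tested genes differed. Of the 30, 25 differed upward and 5 downward. The members' median difference was 0.32, against 0.013 over all tested genes. At 4 h the dexamethasone effect differed with and without LPS for 15 of 38, 7 upward and 8 downward. That was near the background of 38.7% of all, and the medians were -0.043 and 0.031. With library size scaling the 4 h split was 18 upward and 2 downward. The LPS effect itself differed between 24 h and 4 h for 25 of 38 members, 22 upward and 3 downward, where 61.3% of all tested genes differed. The members' median difference was 0.24, against 0.014 over all tested genes. With library size scaling the LPS effect differed for 34, all upward, where the median of all tested genes was 0.58. In each test of a difference, the share of all tested genes covers both directions together. No such share stands beside the upward and downward counts. The comparisons of LPS with untreated cells and of both agents with LPS share the LPS libraries, so their values are given side by side. At 24 h the log2 fold change with LPS and then with dexamethasone added was 3.26 and -2.91 for Me1, 2.21 and -1.04 for Pcx, 1.04 and -0.81 for Idh1, and 0.85 and -1.53 for Pdk1. For Cs the values were 0.76 and 0.24, for Sdha 0.34 and 0.71, for Dlat 0.92 and 0.29, and for Mdh1 -0.34 and 1.04.

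Without any agent, the members differed between the 24 h and 4 h cells most in Me1 (-2.18 ± 0.16), Acod1, Idh3a (-1.31 ± 0.073), Idh1 (1.20 ± 0.075) and Got2 (-0.98 ± 0.05), with adjusted p at most 4e-14 apart from Acod1. Acod1 gave -1.42 ± 0.43 (adjusted p = 0.008), with overlapping groups, and -0.64 with adjusted p = 0.14 without untreated 4 h replicate 1. The call of Idh3g was lost without 4 h replicate 2 or 3 or any 24 h library (adjusted p 0.069 to 0.16), and that of Sdhb without replicate 2 of either time (adjusted p = 0.09 and 0.096). Per kilobase of exon, Glud1 was the most abundant member in untreated cells at 4 h (90.9 CPM per kilobase), followed by Sdhd (67.4) and Mdh1 (57.9). At 24 h Idh1 led (100.3), followed by Glud1 (72.6) and Sdhd (67.9). With both agents at 24 h the order after Acod1 was Sdhd (197), Idh1 (118) and Sdha (110.0).

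The shares of all tested genes that rose and fell, given above, are 34.2% and 38.8% for LPS at 4 h, 29.7% and 30.6% at 24 h, and 23.9% and 25.4% for both agents against LPS at 4 h and 21% and 22.6% at 24 h. Nothing particular to a list is read from the counts that follow. Carriers that pass cycle metabolites through the inner mitochondrial membrane were tested for all 9 genes listed. Of these, 5 rose and 2 fell with LPS at 4 h, and 6 rose and 1 fell at 24 h. With both agents over LPS 1 rose and 4 fell at 4 h and 4 rose and 2 fell at 24 h. Slc25a22, a glutamate carrier, went from 40.6 ± 3.82 to 425 ± 20.9 CPM with LPS at 4 h (3.38 ± 0.09, adjusted p = 4.7e-23) and was lower with both agents (-1.09 ± 0.081). Slc25a10, the dicarboxylate carrier, went from 69.9 ± 8.13 to 166 ± 11 CPM when dexamethasone was added to LPS at 4 h (log2 fold change 1.24 ± 0.076, adjusted p = 5.1e-15) and from 166 ± 8.6 to 294 ± 7.41 CPM at 24 h (log2 fold change 0.82 ± 0.072, adjusted p = 2.8e-11). Slc25a13, an aspartate-glutamate carrier, fell with LPS at 24 h (-1.68 ± 0.093, adjusted p = 4.6e-18) and with dexamethasone alone (-1.33 ± 0.089, adjusted p = 3e-15), and rose with both agents over LPS, from 11.7 ± 0.418 to 35.6 ± 4.12 CPM (1.61 ± 0.094, adjusted p = 7.8e-17). Slc25a12, the other aspartate-glutamate carrier, rose with LPS at both times, by 1.41 ± 0.06 and 1.25 ± 0.063.

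Genes of glutamine and of side entries to the cycle were tested for 13 of 15 listed. With both agents over LPS 5 rose and 4 fell at 4 h, and 6 rose and 3 fell at 24 h. With LPS alone 2 rose and 7 fell at 4 h, and 4 and 5 did at 24 h. Glul, the glutamine synthetase gene, rose with dexamethasone in all 4 settings, by 2.33 ± 0.058 and 1.90 ± 0.056 without LPS and 2.24 ± 0.06 and 2.44 ± 0.058 with LPS. Ass1, which encodes argininosuccinate synthase of the citrulline-to-arginine route, went from 4.78 ± 0.841 to 243 ± 11.5 CPM with LPS at 4 h and from 2.53 ± 0.457 to 106 ± 10.5 CPM at 24 h. Dexamethasone lowered Ass1 under LPS, with log2 fold changes of -1.67 ± 0.10 at 4 h and -2.15 ± 0.11 at 24 h (adjusted p at most 5.8e-14). Aldh5a1, which makes succinate from the GABA side, was higher at 24 h with both agents than with LPS (2.95 ± 0.29, adjusted p = 1e-10), going from 0.95 ± 0.0996 to 7.37 ± 0.5 CPM.

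Of 9 listed cycle genes outside the members, 5 were tested. With LPS 1 rose and 4 fell at 4 h, and 1 rose and 3 fell at 24 h. With both agents over LPS 1 rose and 0 fell at 4 h, and 3 rose and 0 fell at 24 h. D2hgdh, which clears 2-hydroxyglutarate, fell with LPS at 4 h (-1.64 ± 0.14, adjusted p = 5.6e-13). So did Pdpr, the regulatory subunit of the pyruvate dehydrogenase phosphatase (-1.55 ± 0.11, adjusted p = 2e-15). Of the 11 genes of lipoylation and iron-sulfur assembly, which equip cycle enzymes with their cofactors, 4 rose and 1 fell with both agents over LPS at 24 h and 3 rose and none fell at 4 h, the latter near the 23.9% of all tested genes that rose. Iscu, the scaffold of iron-sulfur assembly, rose by 0.94 ± 0.065 and 0.69 ± 0.063 at the 2 times. Of the 4 assembly factors of succinate dehydrogenase, 2 rose at 4 h and 1 at 24 h with both agents, with Sdhaf1 going from 3.46 ± 0.294 to 8.56 ± 0.664 CPM at 24 h (1.30 ± 0.19, adjusted p = 5.4e-07).

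Among 5 genes that handle itaconate, 1 rose and none fell with LPS at 4 h and 3 rose and 1 fell at 24 h. Slc13a3, a sodium-coupled dicarboxylate transporter that takes up itaconate, went from 8.44 ± 1.65 to 33.2 ± 4.62 CPM with LPS at 4 h (1.96 ± 0.20, adjusted p = 1.4e-08) and from 1.3 ± 0.0661 to 10.8 ± 3.24 CPM at 24 h (3.04 ± 0.29, adjusted p = 1.1e-08). Clybl, which cleaves citramalyl-CoA in the breakdown of itaconate, went from 4.48 ± 0.755 to 15 ± 0.561 CPM with LPS at 24 h (1.74 ± 0.13, adjusted p = 5.1e-14). With dexamethasone added to LPS 1 of the 5 rose and 1 fell at 4 h, and 1 rose and none fell at 24 h. The one that fell was Abcg2, an exporter of itaconate, from 10.2 ± 2.68 to 7.35 ± 1.08 CPM (-0.49 ± 0.16, adjusted p = 0.011). Slc13a3 rose at both times, by 0.67 ± 0.18 and 0.84 ± 0.20 (adjusted p = 0.0036 and 0.002), where Acod1 gave -0.25 and -2.24.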

How the data were processed

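RNA of 24 libraries was sequenced, 3 in each of 8 groups, and the read counts per gene were deposited as one table. Per the file header, the authors counted reads with featureCounts 2.0.0 on the GENCODE M29 annotation, and the submitters' processing notes list STAR and the build GRCm38/mm10. M29 annotates GRCm39, so the alignment build is uncertain and no coordinate of the table is given. Members and lists were chosen with earlier results of these data known.

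All 24 libraries were fitted in 1 model with edgeR 4.0.16 in R 4.3.3 (TMM scaling, filterByExpr over the 8 groups, robust quasi-likelihood F test). Of 55357 genes, 25771 had no count and 14601 more were below the filter, leaving 14985. P-values were adjusted over these by Benjamini-Hochberg, with the threshold at 0.05. The standard error is the size of the log2 fold change divided by the square root of F. Symbols matched 52081 of the 55357 identifiers. Values in every library were given for Acod1, for up to 3 members with the largest called rise and fall in each treatment comparison and for the 3 with the largest called difference in each test of a difference. From the other lists up to 2 called rises and falls per comparison were taken. Library values of Pdha1, Sdha and Glud1 and the 4 h LPS values of D2hgdh and Pdpr were added after their values were seen. The main fit did not pair libraries by replicate number. What the numbers stand for is not given in the sources used here. Alternatives were DESeq2 1.42.0, DESeq2 size factors, library size alone, no filter, the replicate block, fits of only the groups compared and leaving out each library. The fit was tested on simulated data. Some genes outside the members are not reported here.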

Additional observations from a re-analysis of the deposited data

Results flagged for a closer look

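The effect of LPS differed between 24 h and 4 h, by the interaction test of edgeR with Benjamini-Hochberg adjustment, for 25 of 38 members, near the 61.3% of all tested genes, of which Pdk2 (3.47 on the log2 scale), Me1 (3.07) and Pcx (2.53) had the largest differences. The effect of dexamethasone under LPS differed between the times for 31 of 38 members, where 38.8% of all tested genes did, led by Acod1 (-1.99), Me1 (-1.83) and Pcx (-1.49).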

How the results depend on the processing

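Counts of called members depended most on the scaling. With library size alone, LPS at 4 h gave 3 higher and 34 lower members, and both agents against LPS at 4 h gave 24 higher and 5 lower. In the fit of only the groups compared, both agents against LPS at 4 h gave 6 lower. The cause was not tested. Of the remaining counts under the alternatives, 235 stayed within 1.5 times the reported count. For the tests of a difference, these counts took both directions together and so leave out a change of split. With library size alone, dexamethasone with against without LPS at 4 h gave 18 upward and 2 downward in place of 7 and 8. Of the values of members singled out for their size of change, 652 kept direction and call, 7 lost the call, 1 gained it and 0 changed sign. These members were picked for large effects. Over all members and comparisons, 91 calls changed with library size alone, 20 with DESeq2 and 24 in fits of only the groups compared. With library size alone some called members also changed sign, as given above. Leaving out 1 library gave 12 to 14 higher and 15 to 18 lower members for LPS at 4 h, 25 to 26 and 8 to 10 for LPS at 24 h, 8 to 11 and 8 to 13 for dexamethasone at 4 h, and 7 to 8 and 12 to 14 at 24 h. For both agents against LPS it gave 5 to 8 and 8 to 10 at 4 h and 23 to 24 and 6 to 8 at 24 h, and for untreated cells 5 to 6 and 20 to 22. The tests of a difference gave 21 to 25, 29 to 32, 11 to 14 and 28 to 30 called members for LPS between the times, dexamethasone under LPS between the times, and dexamethasone with against without LPS at 4 h and at 24 h. With the replicate block, 7 members were higher with both agents against LPS at 4 h and 24 at 24 h, and 22 were lower in untreated cells at 24 h, and no other count changed. The 21 correlations between libraries of the same number ran from -0.12 to 0.07. Depth limits the members with few reads, Acod1 without LPS and Pdk2 with LPS at 4 h.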
